A study of Mus musculus with 18 samples.

Results

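DNA replication genes are the genes whose products copy the genome in S phase: they license replication origins, run the replication fork, supply its nucleotides and rebuild chromatin behind it. A list of 44 of them was followed in RAW cells, a line of macrophage-like cells from mouse, by finding the probe sets that the array annotation gives to each gene. Of the 44 genes, 43 had a probe set annotated to that gene alone, and 42 were bright enough to enter the tests, among 12257 genes tested in all. Each gene is represented by the kept probe set with the highest mean over all 18 arrays. The thymidylate synthase gene Tyms had 4 such probe sets, all below the brightness filter, the brightest between 7.01 and 13.6. A further probe set, annotated to Tyms together with another symbol, was not used, so these low values do not show that Tyms message was absent. Chaf1a was not analysed here.

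Before S phase the origin recognition complex (ORC) with CDC6 and CDT1 loads the ring-shaped MCM helicase onto DNA, a step called licensing, and cyclin E kinase activity helps cells enter S phase. CDC45, the GINS complex and MCM10 then activate the helicase. Polymerases alpha, delta and epsilon copy the strands, delta and epsilon on the sliding clamp PCNA. RPA, FEN1 and DNA ligase handle single strands and Okazaki fragments. Many of these genes are transcribed together at the G1 to S transition under E2F transcription factors, and their summed message is widely read as a sign of cycling cells. Macrophage lines divide in culture, and bacterial lipopolysaccharide is known to slow their cycling.

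The cells stayed in medium or received R848 (resiquimod), a synthetic agonist of mouse Toll-like receptor 7, at a labelled dose of 0.1 mM. R848 was given alone, with 1 uM apilimod, an inhibitor of the lipid kinase PIKfyve, or with 1 uM API09, an analog of apilimod that the series design calls inactive. RNA was taken after 1, 3, 7 and 22 h, with 1 array per arm and hour, and from medium at 0 h, with 2 arrays, on 18 Affymetrix mouse arrays. No arm received apilimod or API09 without R848. The labels do not say that any arrays came from separate cultures, so p-values cover only array-to-array spread, possibly of technical origin.

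Values below are deposited intensities, and a difference is a difference of log2(intensity + 16), which understates the change of dim genes. At each hour the R848 and R848+API09 arrays share 1 mean in the fit and are called the R848 controls (n = 2 arrays). The R848 difference is R848 controls minus medium, the apilimod difference is R848+apilimod minus R848 controls, each with 1 array on the other side, and ± is the standard error. That error comes from the R848 and R848+API09 pairs and from the 2 medium arrays at 0 h, and the lone medium and apilimod arrays are assumed to vary alike. A gene is called, and said to rise or fall, at a Benjamini-Hochberg adjusted p under 0.05 over all 12257 genes in limma. In RNA from a whole culture, fewer cycling cells and less message per cell cannot be told apart.

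Promoter sequence is shown for 4 licensing genes because their loader and helicase products are the first needed and because their time courses, given below, differ: Mcm6 and Mcm7 as helicase subunits, Cdc6 as a loader and Orc1 as the gene without a called fall at 7 h with R848. Each line holds the 250 bases before the gene's RefSeq start on its own strand, 5′ to 3′, in build GRCm38.p6, at chr1:128359706-128359955 (minus strand), chr5:138171884-138172133 (minus strand), chr11:98907901-98908150 (plus strand) and chr4:108579204-108579453 (plus strand), and capitals mark letters that match an E2F motif on either strand.
Mcm6: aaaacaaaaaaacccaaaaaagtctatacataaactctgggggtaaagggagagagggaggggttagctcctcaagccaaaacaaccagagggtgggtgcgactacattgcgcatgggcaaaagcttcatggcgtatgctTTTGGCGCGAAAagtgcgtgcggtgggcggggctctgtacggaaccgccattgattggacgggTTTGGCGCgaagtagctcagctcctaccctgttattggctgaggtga
Mcm7: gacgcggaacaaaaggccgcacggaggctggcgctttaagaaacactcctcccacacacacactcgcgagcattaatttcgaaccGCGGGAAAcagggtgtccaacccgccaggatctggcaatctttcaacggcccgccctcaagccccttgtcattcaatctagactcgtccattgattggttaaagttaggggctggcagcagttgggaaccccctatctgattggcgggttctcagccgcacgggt
Cdc6: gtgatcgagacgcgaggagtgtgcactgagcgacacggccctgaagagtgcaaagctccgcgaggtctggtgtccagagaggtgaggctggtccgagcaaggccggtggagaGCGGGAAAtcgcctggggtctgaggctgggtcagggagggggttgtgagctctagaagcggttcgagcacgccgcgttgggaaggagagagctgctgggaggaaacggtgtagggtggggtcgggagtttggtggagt
Orc1: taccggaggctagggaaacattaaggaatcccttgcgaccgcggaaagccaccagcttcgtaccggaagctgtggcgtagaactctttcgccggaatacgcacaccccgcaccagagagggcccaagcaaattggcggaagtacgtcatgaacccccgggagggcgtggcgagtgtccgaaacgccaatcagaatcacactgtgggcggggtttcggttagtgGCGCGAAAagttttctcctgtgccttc

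The motifs searched were TTTCCCGC, TTTCGCGC, TTTGCCGC and TTTGGCGC on both strands, where matches may overlap. Mcm6 held 3 matches and Mcm7, Cdc6 and Orc1 held 1 each. The RefSeq promoter table matched 34 of the 42 genes by symbol, and 8 of those (23.5%) held a match in the 250 bases: Mcm5, Mcm6, Mcm7, Cdc6, Orc1, Gins3, Rfc3 and Pola1. Such a match stood in 1.92% of all 27025 promoters given there and in 3.46% of the 9933 that belong to tested genes. The letters CCAAT, on either strand, stood in 21 of the 34 (61.8%), in 34.5% of all promoters and in 36.2% of those of tested genes. Each gene had 1 window, before the RefSeq start farthest upstream on its strand, so letters near any other start were not searched. A match describes letters in this window, and a promoter without one lacks only these letters in this window.

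The 2 medium arrays at 0 h differed by a median of 0.05 over the 42 genes on the log2 scale, and by at most 0.24. The upper quartile of intensity was 110.5 to 118.6 on the 15 arrays up to 7 h and in medium at 22 h, and 103.6, 100.9 and 87.0 on the R848, R848+apilimod and R848+API09 arrays at 22 h. The mean log2 intensity of 18S ribosomal RNA probe sets was highest on the R848+API09 arrays at 22 h (10.53) and 7 h (10.14), against 9.45 with apilimod at 22 h, and its part in the results was not tested. The log2 ratio of 3′ to 5′ actin control probe sets at 22 h was 0.49 with R848+API09, 0.38 with R848+apilimod, 0.34 in medium and 0.25 with R848. On the earlier arrays it was 0.11 to 0.28. For Gapdh the ratios at 22 h were -0.13, -0.09, -0.15 and -0.10 in the same order. The part of these ratios was not tested. All 10 macrophage markers (Adgre1, Cd68, Csf1r, Lyz2, Itgam, Spi1, Cd14, Fcgr1, Mpeg1 and Aif1) were above the filter on every array, with a summed intensity of 40995 to 50621. The summed intensities of lymphocyte, fibroblast and epithelial markers were 122 to 172, 63.4 to 128 and 92.2 to 122, with 2 of 8, 1 of 6 and 2 of 5 markers above the filter on every array. The fibroblast sum at 22 h was 68.2 in medium, 128 with R848, 119.9 with R848+API09 and 69.1 with R848+apilimod, with 4 of the 6 markers below the filter on every array, and its part in the results was not tested.

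With R848 most replication genes fell by 3 h and nearly all by 7 h, the hour at which most had their lowest level in the R848 controls, and by 22 h most had come back in part in the controls and had not with apilimod. At 1 h, 0 of the 42 genes were lower by limma (0.0653% of all genes were called lower). An unadjusted p under 0.05 stood in 2 genes, in opposite directions: Gins3 (-0.46) and Orc1 (0.22). At 3 h, 26 had fallen (9.19% of all genes were called lower) and none had risen (6.23% of all genes were called higher), with a median difference of -0.48 over the 42 genes and -0.03 over all genes. At 7 h, 41 of 42 had fallen (18.5% of all genes), with a median of -1.13 against -0.04. At 22 h, 23 were still lower (29.1% of all genes), with a median of -0.31 against -0.03. All 26 genes that fell by 3 h were also lower at 7 h, when every one of the 42 genes but Orc1 was. Both R848 control arrays lay below the medium array for 42, 41 and 32 of the 42 genes at 3, 7 and 22 h, against 47.5%, 48.7% and 45.2% of all genes.

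With apilimod fewer genes differed from the R848 controls up to 7 h than at 22 h. At 1 h limma called 0 of 12257 genes, with 165 at an unadjusted p under 0.05, 0 of them replication genes. At 3 h, 2 replication genes were higher than in the R848 controls, Cdt1 and Gins3 (5.07% of all genes were called higher), and none lower (4.12% of all genes were called lower). At 7 h, 9 were lower (9.81% of all genes): Mcm6, Cdc6, Orc6, Rpa2, Rrm2, Tk1, Uhrf1, Ccne1 and Ccne2. Cdt1 and Orc1 were higher at 7 h (9.81% of all genes were called higher). At 22 h, 37 of 42 were lower (14.3% of all genes), with a median of -1.01 against 0.03 over all genes, and the other 5 were Cdt1, Gins3, Rfc1, Chaf1b and Ccne1. The R848+apilimod array at 22 h lay below both R848 control arrays of that hour for 40 of the 42 genes, against 34.4% of all genes.

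Set against medium of the same hour, the R848+apilimod arrays were lower for 25 of the 42 genes at 3 h (9.64% of all genes), 40 at 7 h (19.1%) and 38 at 22 h (25.8%). Orc1 alone was higher there at 7 h (12.3% of all genes were called higher). The median over the 42 genes was -0.48 at 3 h, -1.13 at 7 h and -1.41 at 22 h, with 0.02 over all genes at 22 h. These comparisons share the medium arrays with the R848 differences and the apilimod arrays with the apilimod differences.

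**Figure D1:**
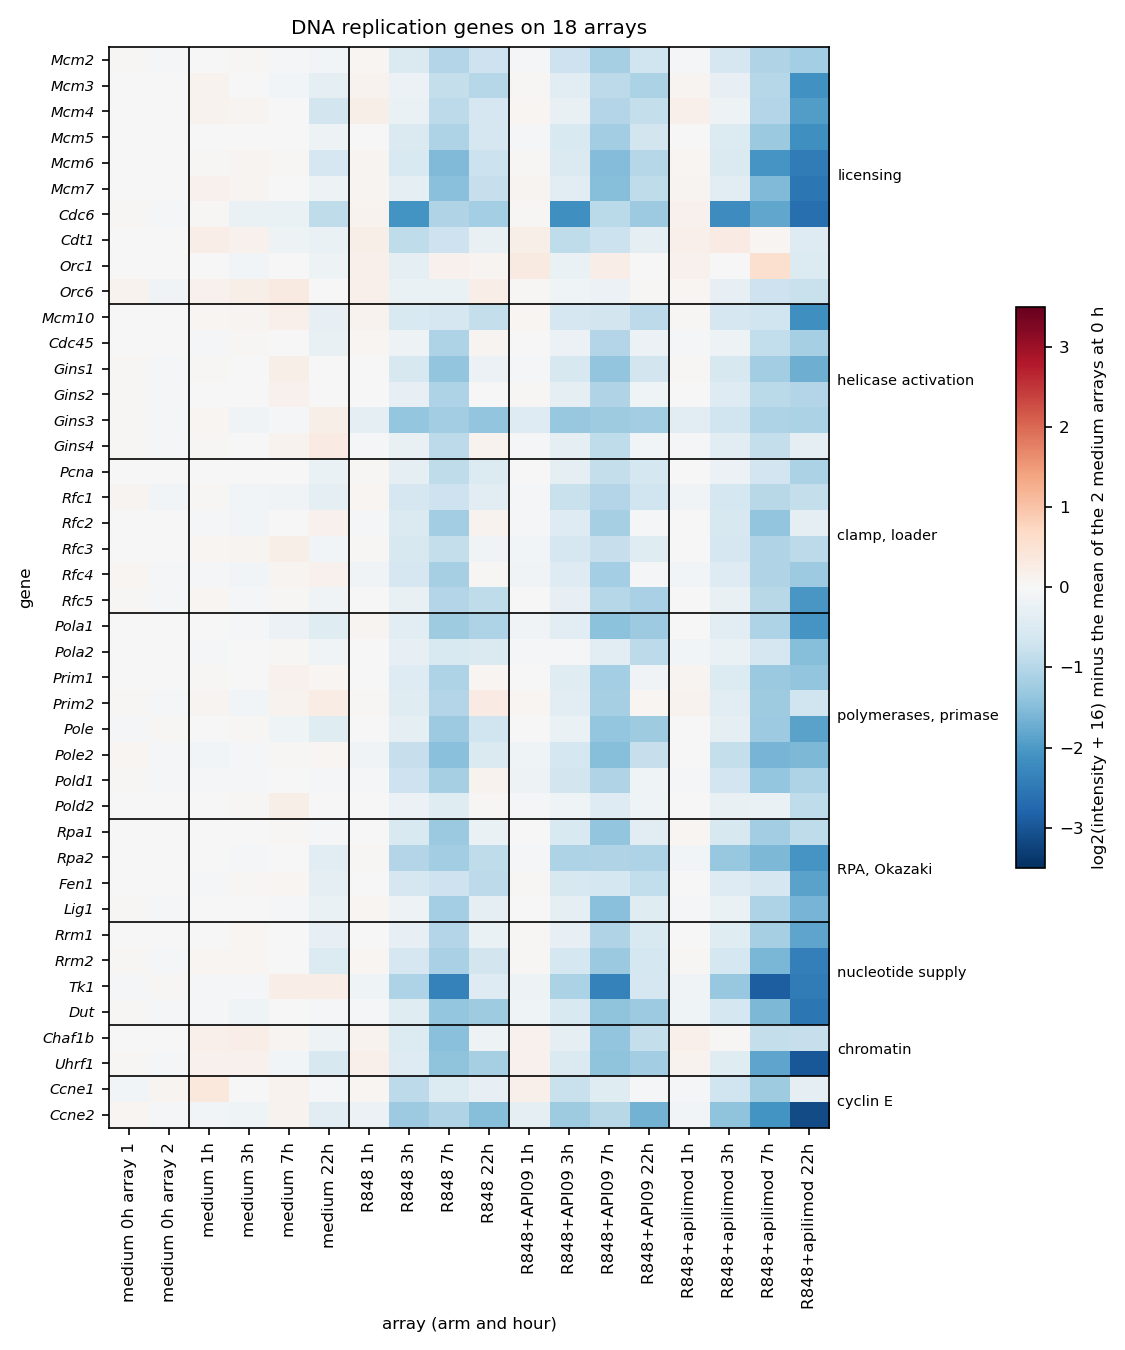
Heatmap of log2(intensity + 16) of 42 DNA replication genes (rows, grouped by role) on 18 arrays (columns, grouped by arm and ordered by hour), as the difference from the mean of the 2 medium arrays at 0 h. The R848 and R848+API09 columns are bluest at 7 h and paler at 22 h. At 22 h the R848+apilimod column lies below both of them for 40 genes (34.4% of all genes tested).

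Licensing genes fell with R848 in 9 of 10 cases at 7 h (18.5% of all genes), with a median of -0.86. At 22 h 6 of 10 were lower (29.1% of all genes), with a median of -0.33. With apilimod 9 of 10 were lower than the R848 controls at 22 h (14.3% of all genes), with a median of -1.16. At 7 h 3 were lower and 2 higher with apilimod (9.81% of all genes in each direction). Mcm7, a subunit of the MCM helicase ring, had an intensity of 3713 and 3798 on the medium arrays at 0 h, and of 4137, 4042, 3820.4 and 3307 in medium at 1, 3, 7 and 22 h. For Mcm7 the R848 arrays gave 4008, 2982, 1353 and 2119.7 at these hours, the R848+API09 arrays 4017, 2907, 1339 and 2008, and the R848+apilimod arrays 4003, 2824, 1282 and 641. The R848 and R848+API09 arrays followed each other closely, and both lay below medium at every hour. The R848 difference of Mcm7 was -0.46 ± 0.08 at 3 h, -1.49 ± 0.08 at 7 h (adjusted p = 2.27e-07), a 2.82-fold fall, and -0.68 ± 0.08 at 22 h. The apilimod difference was -0.07 at 7 h, not called, and -1.66 ± 0.08 at 22 h (adjusted p = 1.71e-07), and against medium the apilimod array was 5.06-fold lower. Mcm6, another subunit of the ring, had an intensity of 2762 and 2787 on the medium arrays at 0 h, and of 2855, 2977, 2848 and 1858 in medium at 1, 3, 7 and 22 h. For Mcm6 the R848 arrays gave 2989.9, 1914, 943 and 1633 at these hours, the R848+API09 arrays 2834, 1946, 953 and 1372, and the R848+apilimod arrays 2891, 1967, 649 and 498. Mcm6 was already lower on the apilimod array than on both controls at 7 h. The R848 controls differed from medium by -0.62 ± 0.11, -1.57 ± 0.11 (adjusted p = 9.65e-07) and -0.31 ± 0.11 at 3, 7 and 22 h, and its apilimod difference was -0.54 ± 0.11 at 7 h (adjusted p = 0.00358) and -1.56 ± 0.11 at 22 h. The call of Mcm6 at 22 h with R848 was lost when the R848+API09 array of that hour was left out (-0.18), or either medium array at 0 h, or either R848 control at 3 h (-0.31 each).

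The other 4 ring subunits also fell with R848 at 7 h and were lower with apilimod at 22 h. Mcm5 had an intensity of 3380.4 and 3415 on the medium arrays at 0 h, and of 3449.8, 3348, 3452 and 3030.4 in medium at 1, 3, 7 and 22 h. For Mcm5 the R848 arrays gave 3433, 2389.5, 1600.0 and 2277 at these hours, the R848+API09 arrays 3332, 2326, 1461 and 2191, and the R848+apilimod arrays 3426, 2427, 1360.1 and 751. The 3 stimulated arms lay together at 3 h, and the apilimod array was the lowest at 7 h and far the lowest at 22 h. Against medium the R848 controls stood at -1.17 ± 0.09 at 7 h (adjusted p = 2.65e-06) and -0.44 ± 0.09 at 22 h, and the apilimod difference at 22 h was -1.55 ± 0.09 (adjusted p = 3.76e-07). Mcm4 had an intensity of 1359 and 1363 on the medium arrays at 0 h, and of 1473, 1444, 1340.2 and 872 in medium at 1, 3, 7 and 22 h. For Mcm4 the R848 arrays gave 1561, 1157, 721 and 904 at these hours, the R848+API09 arrays 1425, 1125, 665 and 764, and the R848+apilimod arrays 1527, 1203, 657 and 339. In medium Mcm4 itself was lowest at 22 h, where the R848 and R848+API09 arrays lay on either side of it. With R848 it differed from medium by -0.94 ± 0.11 at 7 h (adjusted p = 7.63e-05) and -0.07 at 22 h, not called, and its apilimod difference at 22 h was -1.25 ± 0.11 (adjusted p = 9.58e-06). Mcm2 had an intensity of 889.9 and 849 on the medium arrays at 0 h, and of 874, 896, 839 and 817 in medium at 1, 3, 7 and 22 h. For Mcm2 the R848 arrays gave 904, 604, 418 and 525 at these hours, the R848+API09 arrays 843, 521, 383 and 526, and the R848+apilimod arrays 822, 575, 409 and 372. Mcm2 levels of the 3 stimulated arms overlapped at 3 and 7 h, and the apilimod array was lower than the others at 22 h. For Mcm2 the R848 difference was -1.04 ± 0.11 at 7 h and -0.62 ± 0.11 at 22 h, and the apilimod difference at 22 h was -0.48 ± 0.11 (adjusted p = 0.005), the smallest of the 6 subunits. Mcm3 had an intensity at 22 h of 1078 in medium, 667 with R848, 619.7 with R848+API09 and 298 with R848+apilimod. For Mcm3 the R848 difference was -0.77 ± 0.10 at 7 h and -0.73 ± 0.10 at 22 h, and the apilimod difference at 22 h was -1.07 ± 0.10 (adjusted p = 1.31e-05).

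The loaders of the helicase did not share 1 time course. Cdc6, which works with ORC to load the helicase, had an intensity of 638 and 601 on the medium arrays at 0 h, and of 633, 524, 529 and 328 in medium at 1, 3, 7 and 22 h. For Cdc6 the R848 arrays gave 675, 132, 289 and 264 at these hours, the R848+API09 arrays 635, 128, 311 and 246, and the R848+apilimod arrays 690.3, 123, 166 and 86.6. Cdc6 was lowest at 3 h on both control arrays and at 22 h on the apilimod array, with no overlap between apilimod and controls at 7 and 22 h. Its R848 difference was -1.89 ± 0.09 at 3 h (adjusted p = 1.67e-07), the largest fall of the 42 genes at that hour, -0.79 ± 0.09 at 7 h and -0.35 ± 0.09 at 22 h. The apilimod difference of Cdc6 was -0.80 ± 0.09 at 7 h (adjusted p = 9.14e-05) and -1.40 ± 0.09 at 22 h (adjusted p = 1.15e-06). Cdt1, the other loading factor and the target of geminin, had an intensity of 2669.7 and 2718 on the medium arrays at 0 h, and of 3189, 2979, 2379.7 and 2294 in medium at 1, 3, 7 and 22 h. For Cdt1 the R848 arrays gave 3112, 1439, 1631 and 2259 at these hours, the R848+API09 arrays 3079, 1435, 1608 and 2108, and the R848+apilimod arrays 3068, 3262, 2834 and 1950.4. At 3 and 7 h the apilimod arrays stood well above both controls and above medium. The R848 difference of Cdt1 was -1.04 ± 0.08 at 3 h, -0.55 ± 0.08 at 7 h and -0.07 at 22 h, the last not called. The apilimod difference was 1.17 ± 0.08 at 3 h (adjusted p = 4.94e-06), a 2.26-fold higher level, 0.80 ± 0.08 at 7 h (adjusted p = 3.78e-05) and -0.16 ± 0.08 at 22 h (adjusted p = 0.172), not called. Against medium the apilimod array was at 0.13 ± 0.10 at 3 h, 0.25 ± 0.10 at 7 h and -0.23 ± 0.10 at 22 h, none called.

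Of the ORC subunits on the list, Orc6 fell with R848 at 7 h and Orc1 did not pass the test. Among those tested outside the list, Orc5 fell at that hour (-0.47). Orc2 (-0.23), Orc3 (0.01) and Orc4 (0.15) were not called. Orc1, the largest subunit of the origin recognition complex, had an intensity of 157 and 158 on the medium arrays at 0 h, and of 160.2, 147, 155 and 137 in medium at 1, 3, 7 and 22 h. For Orc1 the R848 arrays gave 179, 124, 177 and 169 at these hours, the R848+API09 arrays 201, 132, 186 and 158, and the R848+apilimod arrays 178, 156, 239 and 109. Both controls were above medium at 7 and 22 h, and the apilimod array was above both at 7 h and below both at 22 h. The R848 difference of Orc1 was 0.21 ± 0.10 at 7 h (adjusted p = 0.142) and 0.23 ± 0.10 at 22 h, neither called. The apilimod difference was 0.37 ± 0.10 at 7 h (adjusted p = 0.0196) and -0.52 ± 0.10 at 22 h (adjusted p = 0.00176). Both calls were lost with the mean over the gene's probe sets (0.24 and -0.22), and that at 7 h also with R848+API09 as the only control (0.33). The R848 difference at 22 h was called higher with quantile normalization (0.46), with each array centred on its median (0.45) and without the R848+API09 array of that hour (0.27). Orc6, a small ORC subunit, had an intensity at 7 h of 481 in medium, 321 with R848, 329 with R848+API09 and 225 with R848+apilimod. The R848 controls differed from medium by -0.55 ± 0.12 at 7 h and 0.15 ± 0.12 at 22 h, the latter not called, and its apilimod difference was -0.50 ± 0.12 at 7 h and -0.91 ± 0.12 at 22 h (adjusted p = 1.46e-04). The Orc6 call at 7 h with apilimod was lost without the R848+API09 array of that hour (-0.48).

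**Figure D2:**
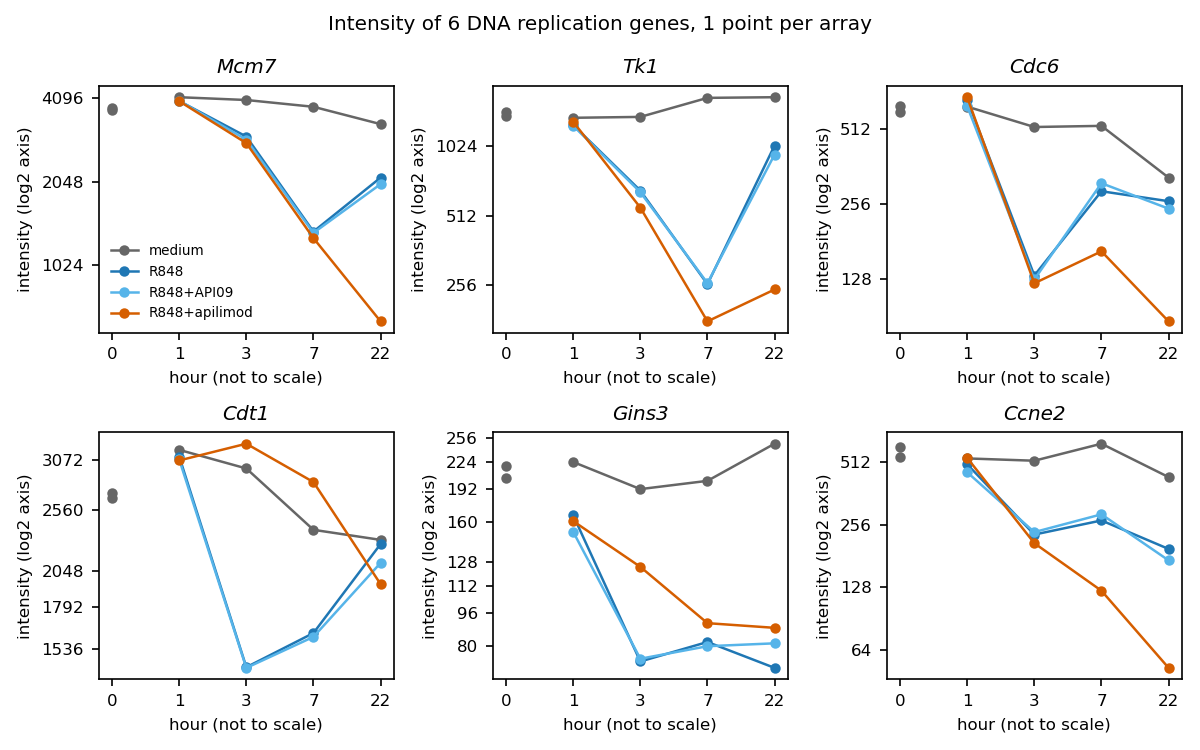
Time courses of Mcm7, Tk1, Cdc6, Cdt1, Gins3 and Ccne2: intensity on a log2 axis against the hour (hours not to scale), with 1 point per array and 1 colour per arm. Mcm7 and Tk1 return toward medium at 22 h in both control arms. With apilimod Mcm7 does not, and Tk1 rises only a little from its lowest value and stays far below both controls. Cdt1 with apilimod reads 3262 at 3 h against 1439 and 1435 in the controls.

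All 6 genes that activate the helicase fell with R848 at 7 h (18.5% of all genes), with a median of -1.12. With apilimod 5 of 6 were lower at 22 h (14.3% of all genes), with a median of -1.03. Gins1, a subunit of GINS, which holds the active helicase together, had an intensity of 666 and 631 on the medium arrays at 0 h, and of 662, 647, 744 and 654 in medium at 1, 3, 7 and 22 h. For Gins1 the R848 arrays gave 654, 431, 239 and 562 at these hours, the R848+API09 arrays 615, 435, 240.0 and 410.0, and the R848+apilimod arrays 666, 437, 269 and 187. Gins1 with apilimod was slightly above both controls at 7 h and below them at 22 h. Against medium the R848 controls stood at -1.57 ± 0.14 at 7 h (adjusted p = 1.04e-05) and -0.43 ± 0.14 at 22 h, a call lost without the R848+API09 array of 22 h (-0.21), and the apilimod difference at 22 h was -1.29 ± 0.14 (adjusted p = 5.18e-05). Cdc45, the factor that joins GINS and MCM at the fork, had an intensity of 290.0 and 292 on the medium arrays at 0 h, and of 283, 298, 296 and 241 in medium at 1, 3, 7 and 22 h. For Cdc45 the R848 arrays gave 309, 258, 131 and 313 at these hours, the R848+API09 arrays 294, 250.3, 134 and 251, and the R848+apilimod arrays 284, 257, 153 and 121. At 22 h both controls were above medium and the apilimod array was below it. The R848 difference of Cdc45 was -1.08 ± 0.11 at 7 h and 0.20 ± 0.11 at 22 h, the latter not called, and its apilimod difference at 22 h was -1.11 ± 0.11 (adjusted p = 2.74e-05). Gins3, another GINS subunit, had an intensity of 218 and 205 on the medium arrays at 0 h, and of 223, 192, 201 and 247 in medium at 1, 3, 7 and 22 h. For Gins3 the R848 arrays gave 166, 73.4, 81.8 and 70.8 at these hours, the R848+API09 arrays 151, 74.5, 79.9 and 81.2, and the R848+apilimod arrays 161, 124, 90.9 and 88.6. Gins3 stayed low at 22 h in every stimulated arm, and the apilimod arrays were above both controls at 3, 7 and 22 h. With R848 it differed from medium by -1.21 ± 0.10, -1.16 ± 0.10 and -1.52 ± 0.10 (adjusted p = 7.39e-07) at 3, 7 and 22 h. Its apilimod difference was 0.64 ± 0.10 at 3 h (adjusted p = 0.00128), and 0.14 and 0.19 at 7 and 22 h, not called, though the value at 22 h was called without the R848+API09 array of that hour (0.27).

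Gins2 had an intensity of 512 and 483 on the medium arrays at 0 h, and of 507, 493, 554 and 493 in medium at 1, 3, 7 and 22 h. For Gins2 the R848 arrays gave 489, 409, 227 and 502 at these hours, the R848+API09 arrays 511, 396, 233 and 446, and the R848+apilimod arrays 500.0, 359, 249 and 238. By 22 h the R848 array was level with medium, the R848+API09 array a little lower and the apilimod array far below. Gins2 had an R848 difference of -1.21 ± 0.10 at 7 h and -0.06 at 22 h, not called, and an apilimod difference of -0.94 ± 0.10 at 22 h (adjusted p = 2.61e-05). Gins4 had an intensity of 513 and 490.2 on the medium arrays at 0 h, and of 515, 506, 549.6 and 619.8 in medium at 1, 3, 7 and 22 h. For Gins4 the R848 arrays gave 481, 415, 258 and 547 at these hours, the R848+API09 arrays 484, 390.2, 262 and 471, and the R848+apilimod arrays 484, 386, 273 and 403. On the 22 h arrays of Gins4, medium, R848, R848+API09 and R848+apilimod stood in falling order. Its R848 difference was -1.04 ± 0.10 at 7 h and -0.28 ± 0.10 at 22 h, and its apilimod difference was -0.32 ± 0.10 at 22 h (adjusted p = 0.03). Both calls of Gins4 at 22 h were lost when either medium array at 0 h was left out, and that with R848 also without any 1 of the 7 R848 control arrays other than the R848 array of 22 h (-0.28, and -0.17 without R848+API09 at 22 h). Mcm10, which helps start the helicase, had an intensity of 349 and 344 on the medium arrays at 0 h, and of 367, 374, 392 and 282 in medium at 1, 3, 7 and 22 h. For Mcm10 the R848 arrays gave 377, 233, 224 and 188 at these hours, the R848+API09 arrays 363, 226, 218 and 176, and the R848+apilimod arrays 358, 224, 208 and 66.6. The apilimod array was the lowest of the stimulated arms at each hour, by a wide margin only at 22 h. Mcm10 was low from 3 h onward, with an R848 difference of -0.67 ± 0.09, -0.78 ± 0.09 and -0.59 ± 0.09 at 3, 7 and 22 h, and an apilimod difference of -1.26 ± 0.09 at 22 h (adjusted p = 1.27e-06).

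The sliding clamp and its loader fell as a group with R848: all 6 genes were lower at 7 h (18.5% of all genes), with a median of -1.04. Only Pcna and Rfc5 were called at 22 h (29.1% of all genes were called lower), with a median of -0.19 over the 6. With apilimod 5 of 6 were lower at 22 h (14.3% of all genes), with the smallest median among the roles, -0.59. Pcna, the clamp that tethers polymerases to DNA, had an intensity of 9311 and 9247 on the medium arrays at 0 h, and of 9269.9, 9194, 9278 and 7901 in medium at 1, 3, 7 and 22 h. For Pcna the R848 arrays gave 9571, 7502, 5035 and 6667 at these hours, the R848+API09 arrays 9169, 7495, 5216 and 6022, and the R848+apilimod arrays 9402, 8009.8, 5773 and 4293. The apilimod array was above both controls at 3 and 7 h and below both at 22 h. The R848 controls differed from medium by -0.85 ± 0.09 at 7 h (adjusted p = 3.37e-05) and -0.32 ± 0.09 at 22 h, and its apilimod difference was -0.56 ± 0.09 at 22 h (adjusted p = 7.21e-04). The clamp is opened and closed around DNA by the RFC complex, made of Rfc1 to Rfc5. Rfc4 had an intensity of 931 and 853 on the medium arrays at 0 h, and of 867, 834, 959 and 989 in medium at 1, 3, 7 and 22 h. For Rfc4 the R848 arrays gave 823, 591, 388 and 923 at these hours, the R848+API09 arrays 821, 649, 379 and 853, and the R848+apilimod arrays 832, 648, 425 and 357. All 3 stimulated arms were low at 7 h, and only the apilimod array was low at 22 h. Rfc4 returned close to medium in the controls at 22 h (-0.15, not called) from -1.29 ± 0.10 at 7 h, and its apilimod difference at 22 h was -1.28 ± 0.10 (adjusted p = 3.11e-06). Rfc5 had an intensity of 1253 and 1199 on the medium arrays at 0 h, and of 1298, 1173, 1266 and 1130.5 in medium at 1, 3, 7 and 22 h. For Rfc5 the R848 arrays gave 1240.2, 1026, 590.0 and 653 at these hours, the R848+API09 arrays 1215, 1011, 602 and 551, and the R848+apilimod arrays 1248, 1028, 624 and 284. The 3 stimulated arms were alike up to 7 h and separate at 22 h, with apilimod lowest. Rfc5 was still lower at 22 h, with -1.07 ± 0.10 at 7 h and -0.90 ± 0.10 at 22 h in the controls, and its apilimod difference at 22 h was -1.04 ± 0.10 (adjusted p = 2.22e-05).

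Rfc2 had an intensity of 746 and 771 on the medium arrays at 0 h, and of 730.1, 712, 759 and 851 in medium at 1, 3, 7 and 22 h. For Rfc2 the R848 arrays gave 733, 531, 318 and 829 at these hours, the R848+API09 arrays 719.7, 552, 329.6 and 731, and the R848+apilimod arrays 759, 507, 279 and 611. At 22 h the apilimod array too was higher than at 7 h, though still below both controls. With R848 Rfc2 was at -1.19 ± 0.10 at 7 h and -0.13 at 22 h, not called, and apilimod differed from the controls by -0.34 ± 0.10 at 22 h (adjusted p = 0.0173). Rfc3 had an intensity of 504 and 500.4 on the medium arrays at 0 h, and of 524, 538, 578 and 472 in medium at 1, 3, 7 and 22 h. For Rfc3 the R848 arrays gave 519, 333, 275 and 457 at these hours, the R848+API09 arrays 469, 331, 279.7 and 369.7, and the R848+apilimod arrays 499, 331, 234 and 260.4. Apilimod was lowest at 7 and 22 h, and the control arrays differed from each other at 22 h. With R848 Rfc3 was at -1.02 ± 0.12 at 7 h and -0.19 at 22 h, not called, and the apilimod difference was -0.63 ± 0.12 at 22 h (adjusted p = 0.00175). Rfc1, the large subunit of the loader, had an intensity of 405 and 349 on the medium arrays at 0 h, and of 384, 350.1, 344 and 291 in medium at 1, 3, 7 and 22 h. For Rfc1 the R848 arrays gave 397, 247, 222 and 284 at these hours, the R848+API09 arrays 363, 214, 175 and 225, and the R848+apilimod arrays 343, 240.1, 183 and 203. For Rfc1 the apilimod arrays lay between the control arrays at 3 and 7 h and below both at 22 h. Against medium the R848 controls stood at -0.76 ± 0.16 at 7 h (adjusted p = 0.00468) and -0.19 at 22 h, and its apilimod difference was -0.29 ± 0.16 at 22 h (adjusted p = 0.198), the last 2 not called. These Rfc1 values at 22 h depended on the probe set. One nearly as bright (mean 285 against 290) read -0.32 with R848 and -0.66 with apilimod. Another (mean 197) read -0.64 with R848 and -0.18 with apilimod. Neither further probe set was tested.

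All 8 genes of the polymerases and primase fell at 7 h with R848 (18.5% of all genes), with a median of -1.14, and 4 were lower at 22 h (29.1% of all genes). With apilimod all 8 were lower at 22 h (14.3% of all genes), with a median of -0.90. Pole2, the second subunit of the leading-strand polymerase epsilon, had an intensity of 737 and 664 on the medium arrays at 0 h, and of 651, 668, 723 and 739 in medium at 1, 3, 7 and 22 h. For Pole2 the R848 arrays gave 641, 394, 242 and 484 at these hours, the R848+API09 arrays 634, 450.5, 237 and 397, and the R848+apilimod arrays 695, 386, 215 and 222. At 22 h both controls had climbed and the apilimod array had not. With R848 it differed from medium by -1.53 ± 0.13 at 7 h (adjusted p = 4.26e-06) and -0.73 ± 0.13 at 22 h, and its apilimod difference was -0.93 ± 0.13 at 22 h. Pole, the catalytic subunit of polymerase epsilon, had an intensity of 223 and 238 on the medium arrays at 0 h, and of 227, 235, 204 and 166 in medium at 1, 3, 7 and 22 h. For Pole the R848 arrays gave 231, 183, 86.7 and 137 at these hours, the R848+API09 arrays 234, 192, 80.9 and 89.0, and the R848+apilimod arrays 233, 179, 85.5 and 50.8. The 2 control arrays of Pole differed at 22 h more than at 7 h, and both were above the apilimod array. Its R848 difference was -1.14 ± 0.17 at 7 h and -0.52 ± 0.17 at 22 h, and its apilimod difference was -0.92 ± 0.17 at 22 h (adjusted p = 0.00147). Prim1, the catalytic subunit of primase, which makes the RNA primers, had an intensity of 910.1 and 906 on the medium arrays at 0 h, and of 929, 911, 1005 and 950.4 in medium at 1, 3, 7 and 22 h. For Prim1 the R848 arrays gave 904, 665, 420.2 and 958 at these hours, the R848+API09 arrays 913, 667, 386 and 834, and the R848+apilimod arrays 969, 654, 363 and 341. At 22 h the controls lay close to medium on either side, and the apilimod array was as low as at 7 h. Prim1 was at -1.29 ± 0.10 at 7 h and -0.09 at 22 h, not called, with R848, and the apilimod difference at 22 h was -1.35 ± 0.10 (adjusted p = 2.50e-06). Prim2, the other primase subunit, had an intensity of 379 and 356 on the medium arrays at 0 h, and of 392, 343, 398 and 443 in medium at 1, 3, 7 and 22 h. For Prim2 the R848 arrays gave 377, 268, 171 and 449 at these hours, the R848+API09 arrays 389, 277, 156 and 385, and the R848+apilimod arrays 402, 277, 146 and 218. The controls at 22 h lay on either side of medium, and apilimod stood between its 3 and 7 h levels. Prim2 was at -1.21 ± 0.11 at 7 h and -0.09 at 22 h, not called, with R848, and the apilimod difference at 22 h was -0.88 ± 0.11.

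Pola1, the catalytic subunit of polymerase alpha, which extends the primers, had an intensity of 363 and 364 on the medium arrays at 0 h, and of 369, 346, 315 and 268 in medium at 1, 3, 7 and 22 h. For Pola1 the R848 arrays gave 388, 270.3, 146 and 163 at these hours, the R848+API09 arrays 336, 274, 125 and 139.9, and the R848+apilimod arrays 361, 275, 163 and 75.4. Pola1 also declined in medium, and at 22 h all stimulated arrays lay below it with apilimod lowest. Pola1 stayed lower at 22 h with R848 (-0.76 ± 0.12, after -1.13 ± 0.12 at 7 h), and its apilimod difference at 22 h was -0.87 ± 0.12 (adjusted p = 2.42e-04). Pold1, the catalytic subunit of the lagging-strand polymerase delta, had an intensity of 704 and 659 on the medium arrays at 0 h, and of 649, 657, 684 and 656 in medium at 1, 3, 7 and 22 h. For Pold1 the R848 arrays gave 647, 407, 297 and 738 at these hours, the R848+API09 arrays 605, 432, 322 and 615, and the R848+apilimod arrays 655, 425, 258 and 314. The control arrays lay on either side of medium at 22 h, and the apilimod array stayed low. Pold1 was at -1.11 ± 0.12 at 7 h and 0.04 at 22 h, not called, with R848, and its apilimod difference at 22 h was -1.07 ± 0.12 (adjusted p = 4.34e-05). Pold2, the next subunit of polymerase delta, had an intensity at 22 h of 780.1 in medium, 808 with R848, 712 with R848+API09 and 422 with R848+apilimod. Its R848 difference at 7 h was -0.63 ± 0.10 and its apilimod difference at 22 h -0.82 ± 0.10 (adjusted p = 7.57e-05). Pola2, the second subunit of polymerase alpha, had an intensity at 22 h of 302, 227, 166 and 107 in the same order of arms. Its R848 difference at 7 h was -0.52 ± 0.15, the smallest called fall of the 42 genes at that hour and one lost without the R848 array of 7 h (-0.45), and its apilimod difference at 22 h was -0.77 ± 0.15.

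The 4 genes for single-strand binding and Okazaki fragment processing all fell at 7 h with R848 (18.5% of all genes), with a median of -1.21. All 4 were lower with apilimod at 22 h (14.3% of all genes), with a median of -1.03. Rpa2, a subunit of the single-strand binding protein RPA, had an intensity of 838 and 840.3 on the medium arrays at 0 h, and of 840.1, 801, 847 and 643 in medium at 1, 3, 7 and 22 h. For Rpa2 the R848 arrays gave 861, 402, 354 and 445 at these hours, the R848+API09 arrays 813, 387, 394 and 386, and the R848+apilimod arrays 784, 327, 272 and 189. Rpa2 was low at 3 h already, and the apilimod array was below both controls at every hour. The R848 controls differed from medium by -0.99 ± 0.11, -1.15 ± 0.11 and -0.62 ± 0.11 at 3, 7 and 22 h, and its apilimod difference was -0.43 ± 0.11 at 7 h (adjusted p = 0.0136) and -1.07 ± 0.11 at 22 h. Rpa2 was the only fork gene called with apilimod at 7 h, and that call was lost without the R848+API09 array of 7 h (-0.36). Rpa1, the large RPA subunit, had an intensity of 3434 and 3382 on the medium arrays at 0 h, and of 3425, 3431, 3478 and 3277 in medium at 1, 3, 7 and 22 h. For Rpa1 the R848 arrays gave 3463, 2357, 1366 and 2903 at these hours, the R848+API09 arrays 3382, 2348, 1293 and 2646, and the R848+apilimod arrays 3570.4, 2286, 1464 and 1844. Among the 22 h arrays the order from high to low was medium, R848, R848+API09 and R848+apilimod. Rpa1 was at -1.38 ± 0.09 at 7 h and -0.24 ± 0.09 at 22 h with R848, the latter (adjusted p = 0.049) lost without any 1 of 9 arrays (-0.17 without R848+API09 at 22 h, -0.24 otherwise), and its apilimod difference at 22 h was -0.58 ± 0.09. Lig1, the ligase that seals Okazaki fragments, had an intensity of 1111 and 1064 on the medium arrays at 0 h, and of 1095, 1100.2, 1042 and 915 in medium at 1, 3, 7 and 22 h. For Lig1 the R848 arrays gave 1148, 953, 470.3 and 865 at these hours, the R848+API09 arrays 1101, 867, 383 and 811, and the R848+apilimod arrays 1039, 919, 510.2 and 339.9. The apilimod array was above both controls at 7 h and below both at 22 h. Lig1 was at -1.26 ± 0.12 at 7 h and -0.13 at 22 h, not called, with R848, and its apilimod difference at 22 h was -1.26 ± 0.12 (adjusted p = 1.51e-05). Fen1, the nuclease that trims their flaps, had an intensity of 2575 and 2573 on the medium arrays at 0 h, and of 2500.4, 2652, 2681 and 2039 in medium at 1, 3, 7 and 22 h. For Fen1 the R848 arrays gave 2593, 1714, 1559 and 1359 at these hours, the R848+API09 arrays 2645, 1733, 1663 and 1397, and the R848+apilimod arrays 2581, 1861, 1698 and 689. The 2 controls stayed below medium from 3 h on, and the apilimod array, above both at 3 and 7 h, was the lowest at 22 h. Fen1 was called at 3, 7 and 22 h with R848, with -0.62 ± 0.08, -0.73 ± 0.08 and -0.56 ± 0.08 in that order, and an apilimod difference of -0.98 ± 0.08 at 22 h (adjusted p = 7.31e-06).

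Of the nucleotide supply genes, 4 of 4 tested fell at 7 h with R848 (18.5% of all genes), with a median of -1.33, and 2 were lower at 22 h (29.1% of all genes). With apilimod 4 of 4 were lower at 22 h (14.3% of all genes), with a median of -1.60. Tk1, the cytosolic thymidine kinase, which salvages thymidine for DNA synthesis, had an intensity of 1388 and 1442 on the medium arrays at 0 h, and of 1358, 1370.2, 1656 and 1667 in medium at 1, 3, 7 and 22 h. For Tk1 the R848 arrays gave 1263, 658, 259 and 1031 at these hours, the R848+API09 arrays 1255, 648, 262 and 942, and the R848+apilimod arrays 1305, 556, 179 and 246. In medium Tk1 read above its earlier values at 7 and 22 h, without a call, and all 3 stimulated arms were far below it at 7 h. Against medium the R848 controls stood at -1.05 ± 0.09 at 3 h, -2.60 ± 0.09 at 7 h (adjusted p = 3.64e-09), a 6.05-fold fall and the largest of the 42 genes, and -0.75 ± 0.09 at 22 h. Its apilimod difference was -0.50 ± 0.09 at 7 h (adjusted p = 0.0016) and -1.93 ± 0.09 at 22 h (adjusted p = 1.01e-07), again the largest of the 42. Rrm2, the small subunit of ribonucleotide reductase, which makes deoxynucleotides, had an intensity of 3123 and 2978 on the medium arrays at 0 h, and of 3211, 3192, 3106 and 2197 in medium at 1, 3, 7 and 22 h. For Rrm2 the R848 arrays gave 3175, 2014, 1368 and 1951 at these hours, the R848+API09 arrays 3142, 1999, 1224 and 1985, and the R848+apilimod arrays 3134, 1983, 997 and 572. Apilimod was below both controls at 7 h and, by more, at 22 h. Rrm2 was at -1.25 ± 0.09 at 7 h and -0.16 at 22 h, not called, with R848, and its apilimod difference was -0.37 ± 0.09 at 7 h, a call lost without the R848 array of 7 h (-0.29), and -1.76 ± 0.09 at 22 h (adjusted p = 2.07e-07). Rrm1, the large subunit of the reductase, had an intensity of 2671 and 2661 on the medium arrays at 0 h, and of 2716, 2772, 2646 and 2194 in medium at 1, 3, 7 and 22 h. For Rrm1 the R848 arrays gave 2685, 2180.5, 1299 and 2247 at these hours, the R848+API09 arrays 2719, 2202, 1271 and 1836, and the R848+apilimod arrays 2676, 1985, 1177 and 735. The R848 array passed medium at 22 h, R848+API09 lay below it, and apilimod was far lower. Rrm1 was at -1.03 ± 0.11 at 7 h and -0.11 at 22 h, not called, with R848, and its apilimod difference at 22 h was -1.45 ± 0.11. Dut, which removes dUTP and so keeps uracil out of DNA, had an intensity of 1295 and 1246 on the medium arrays at 0 h, and of 1242, 1148, 1289 and 1208 in medium at 1, 3, 7 and 22 h. For Dut the R848 arrays gave 1206, 937, 486 and 529.5 at these hours, the R848+API09 arrays 1134, 877, 466 and 515, and the R848+apilimod arrays 1141, 825, 414 and 207. Apilimod was below both controls at 3, 7 and 22 h, with the widest gap at 22 h. Dut was still lower in the controls at 22 h, with -1.41 ± 0.09 at 7 h and -1.19 ± 0.09 at 22 h, and with apilimod it was 5.48-fold below medium at 22 h (-2.45 ± 0.10).

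The 2 genes tested for chromatin assembly and maintenance methylation fell with R848 at 7 h, and at 22 h Uhrf1 was lower with apilimod while Chaf1b was not called. Uhrf1, which directs DNA methylation to newly copied DNA, had an intensity of 1374 and 1321 on the medium arrays at 0 h, and of 1491, 1486, 1270.1 and 914 in medium at 1, 3, 7 and 22 h. For Uhrf1 the R848 arrays gave 1535, 978, 501 and 589 at these hours, the R848+API09 arrays 1494, 946, 494 and 566, and the R848+apilimod arrays 1456, 1001, 359.8 and 158. The 2 controls were close at every hour, and apilimod was below both at 7 and 22 h. With R848 it differed from medium by -1.32 ± 0.08 at 7 h and -0.65 ± 0.08 at 22 h, and its apilimod difference was -0.45 ± 0.08 at 7 h (adjusted p = 0.00253) and -1.77 ± 0.08 at 22 h (adjusted p = 1.23e-07). Chaf1b, a subunit of the CAF-1 chaperone that deposits histones behind the fork, had an intensity of 381 and 384 on the medium arrays at 0 h, and of 436, 451, 412 and 338 in medium at 1, 3, 7 and 22 h. For Chaf1b the R848 arrays gave 418, 271, 129 and 338 at these hours, the R848+API09 arrays 422, 301, 138 and 209, and the R848+apilimod arrays 435, 398, 209 and 213. The R848 array at 22 h was as high as medium, and the R848+API09 and R848+apilimod arrays were both low. The R848 difference of Chaf1b was -1.52 ± 0.20 at 7 h and -0.33 ± 0.20 at 22 h, the latter not called. Its apilimod difference was 0.59 ± 0.20 at 7 h (adjusted p = 0.0582) and -0.30 ± 0.20 at 22 h, neither called. Without the R848+API09 array of 22 h it was called at 7 h (0.59) and 22 h (-0.63), and without the R848 array of 22 h it was called at 7 h (0.59) and the R848 difference at 22 h was -0.66 and called. The Chaf1b value at 7 h was also called with quantile normalization (0.57), with centred arrays (0.61), with the stricter filter and with trend and robust variances (0.59 each).

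Both cyclin E genes, whose kinase drives entry into S phase, fell by 3 h with R848 and were lower with apilimod than in the controls at 7 h. Ccne2 had an intensity of 609 and 547 on the medium arrays at 0 h, and of 535, 522, 630.3 and 435 in medium at 1, 3, 7 and 22 h. For Ccne2 the R848 arrays gave 501, 229.8, 269 and 196 at these hours, the R848+API09 arrays 459, 236, 288 and 173, and the R848+apilimod arrays 538, 209, 123 and 52.3. Ccne2 in the controls was lowest at 22 h, while the apilimod array was below both at 3 h and further below them at 7 and 22 h. Its R848 difference was -1.11 ± 0.11, -1.14 ± 0.11 and -1.17 ± 0.11 at 3, 7 and 22 h, and its apilimod difference was -1.08 ± 0.11 at 7 h (adjusted p = 2.46e-05) and -1.55 ± 0.11 at 22 h (adjusted p = 1.59e-06). Against medium the apilimod array at 22 h was 6.61-fold lower. Ccne1 had an intensity of 345 and 400.0 on the medium arrays at 0 h, and of 483, 365, 403 and 357 in medium at 1, 3, 7 and 22 h. For Ccne1 the R848 arrays gave 393, 191, 259.6 and 303 at these hours, the R848+API09 arrays 421, 208, 274 and 357, and the R848+apilimod arrays 361, 222, 147 and 288. For Ccne1 the dip of the apilimod array at 7 h was gone at 22 h, when it lay closer to both controls. The R848 controls differed from medium by -0.82 ± 0.12 at 3 h, -0.57 ± 0.12 at 7 h and -0.11 at 22 h, not called, and its apilimod difference was -0.79 ± 0.12 at 7 h (adjusted p = 6.51e-04) and -0.18 at 22 h, not called.

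Licensing, fork and nucleotide genes were set side by side as counts and medians, without a test between them. With R848 at 7 h the median difference was -0.86 over 10 licensing genes, -1.14 over 24 fork genes (helicase activation, clamp, polymerases and single-strand genes) and -1.33 over 4 nucleotide genes. At 22 h the medians were -0.33, -0.26 and -0.45. With apilimod at 7 h they were -0.10, 0.07 and -0.28, and 5 of 10 licensing, 1 of 24 fork and 2 of 4 nucleotide genes were called. Of the licensing genes Mcm6, Cdc6 and Orc6 were lower and Cdt1 and Orc1 higher, and the called fork and nucleotide genes were lower. Over all genes 9.81% were called lower and 9.81% higher at that hour. With apilimod at 22 h the medians were -1.16, -0.93 and -1.60, with 9, 22 and 4 genes called lower (14.3% of all genes).

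**Figure D3:**
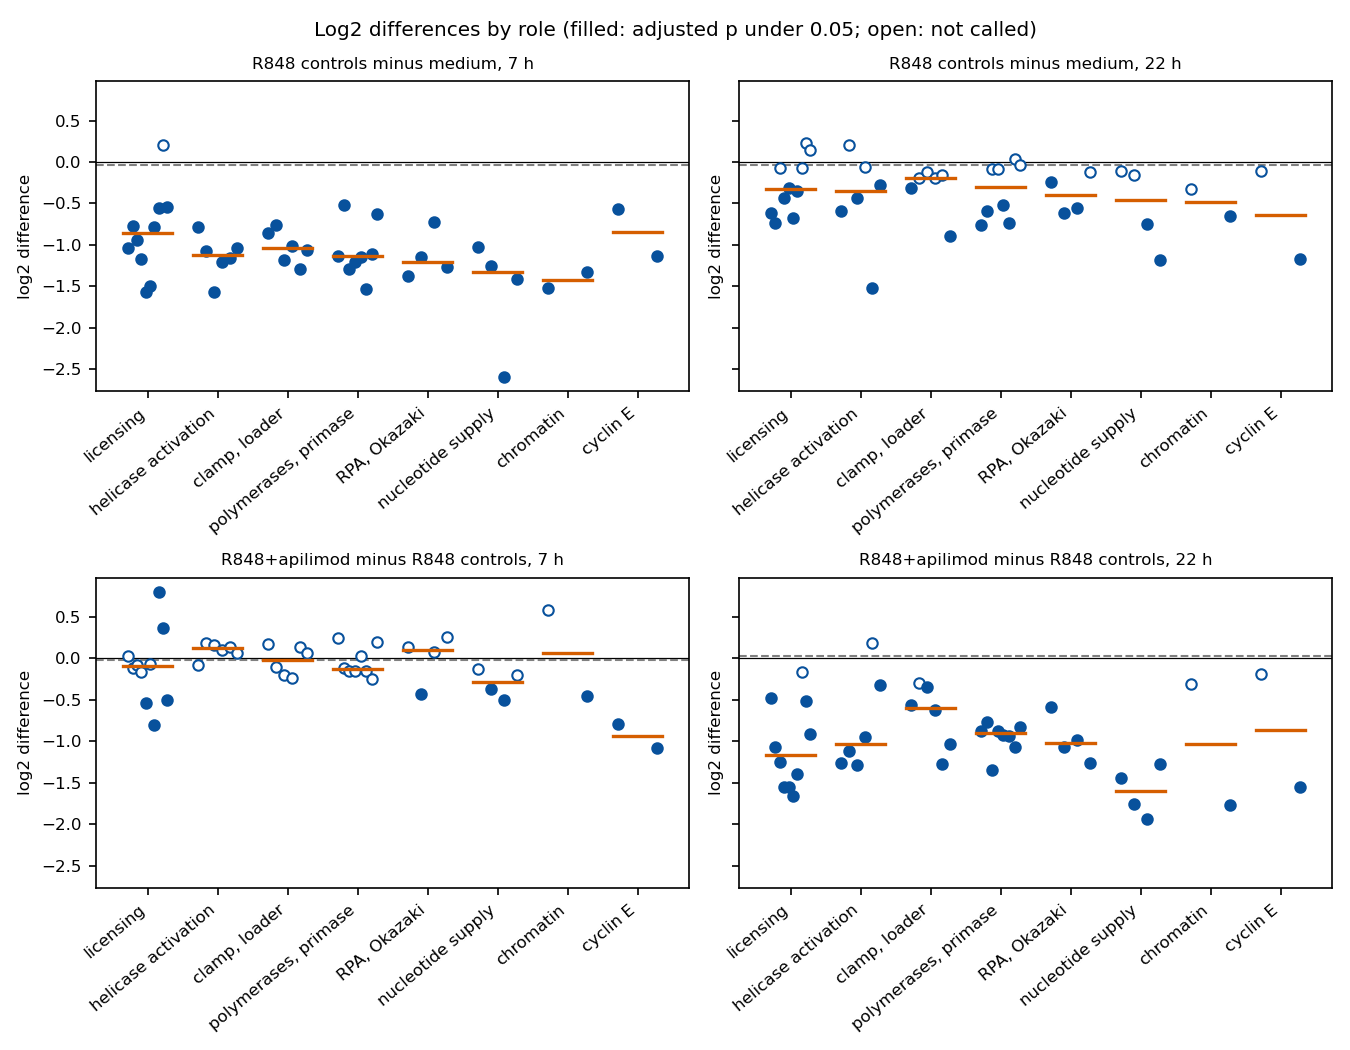
Log2 differences of single genes (points) by role in 4 panels: R848 controls minus medium and R848+apilimod minus R848 controls, each at 7 and 22 h; filled points were called at an adjusted p under 0.05, orange bars are medians of a role and the dashed line is the median of all 12257 genes. Nearly all points lie below 0 with R848 at 7 h and with apilimod at 22 h, and with apilimod at 7 h the fork roles lie close to 0 (median 0.07) while cyclin E lies lowest (-0.94).

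The time course was tested directly as a change of each difference between hours. From 3 to 7 h the R848 difference fell further for 23 genes (3.92% of all genes were called lower) and rose for Cdc6 and Cdt1 (3.8% of all genes were called higher). Tk1 had the largest change, -1.54 ± 0.12 (adjusted p = 3.84e-05), while Cdc6 rose by 1.10 ± 0.13 (adjusted p = 5.69e-04). From 7 to 22 h the R848 difference rose for 28 of 42 genes (10.3% of all genes) and fell for none (15.1% of all genes were called lower), with a median change of 0.71 against 0.02 over all genes. The largest rises were in Tk1 (1.85 ± 0.12, adjusted p = 8.07e-06), Cdc45 (1.28 ± 0.16) and Mcm6 (1.26 ± 0.15). Of the 28 genes, 16 were no longer called lower at 22 h: Mcm4, Cdt1, Orc6, Cdc45, Gins2, Rfc2, Rfc3, Rfc4, Prim1, Prim2, Pold1, Pold2, Lig1, Rrm1, Rrm2 and Chaf1b. Dut (0.22), Mcm3 (0.04), Mcm10 (0.19), Fen1 (0.17), Rfc5 (0.17), Ccne2 (-0.04) and Gins3 (-0.36) were among the 14 without a called change.

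The apilimod difference moved the other way, but the 2 changes are not independent. The same R848 controls enter both differences with opposite sign, so a rise of the controls alone lowers the apilimod difference. From 3 to 7 h it fell for 4 genes, Cdc6, Uhrf1, Ccne1 and Ccne2 (2.52% of all genes were called lower). From 7 to 22 h it fell for 33 genes (8.77% of all genes), with a median change of -0.96 against 0.05, and rose for Ccne1 alone (11.3% of all genes were called higher). Mcm7 (-1.59 ± 0.12, adjusted p = 1.34e-05), Lig1 (-1.52 ± 0.17) and Gins1 (-1.45 ± 0.20) had the largest falls, and Ccne1 rose by 0.61 ± 0.17 (adjusted p = 0.0297), a call lost without the R848+API09 array of 7 h (0.57). In levels, which carry no test, the mean of the R848 controls was higher at 22 h than at 7 h for 34 of 42 genes, against 55.7% of all genes tested. The apilimod array was lower at 22 h than at 7 h for 31 of 42, against 42.3% of all genes. Tk1, Prim2, Pole2, Pold1, Rpa1 and Chaf1b had a called fall of the apilimod difference without a lower apilimod level at 22 h. The apilimod level of Tk1 went from 179 to 246 while that of the R848 array went from 259 to 1031, and the apilimod level of Mcm7 went from 1282 to 641 while that of the R848 array went from 1353 to 2119.7.

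**Figure D4:**
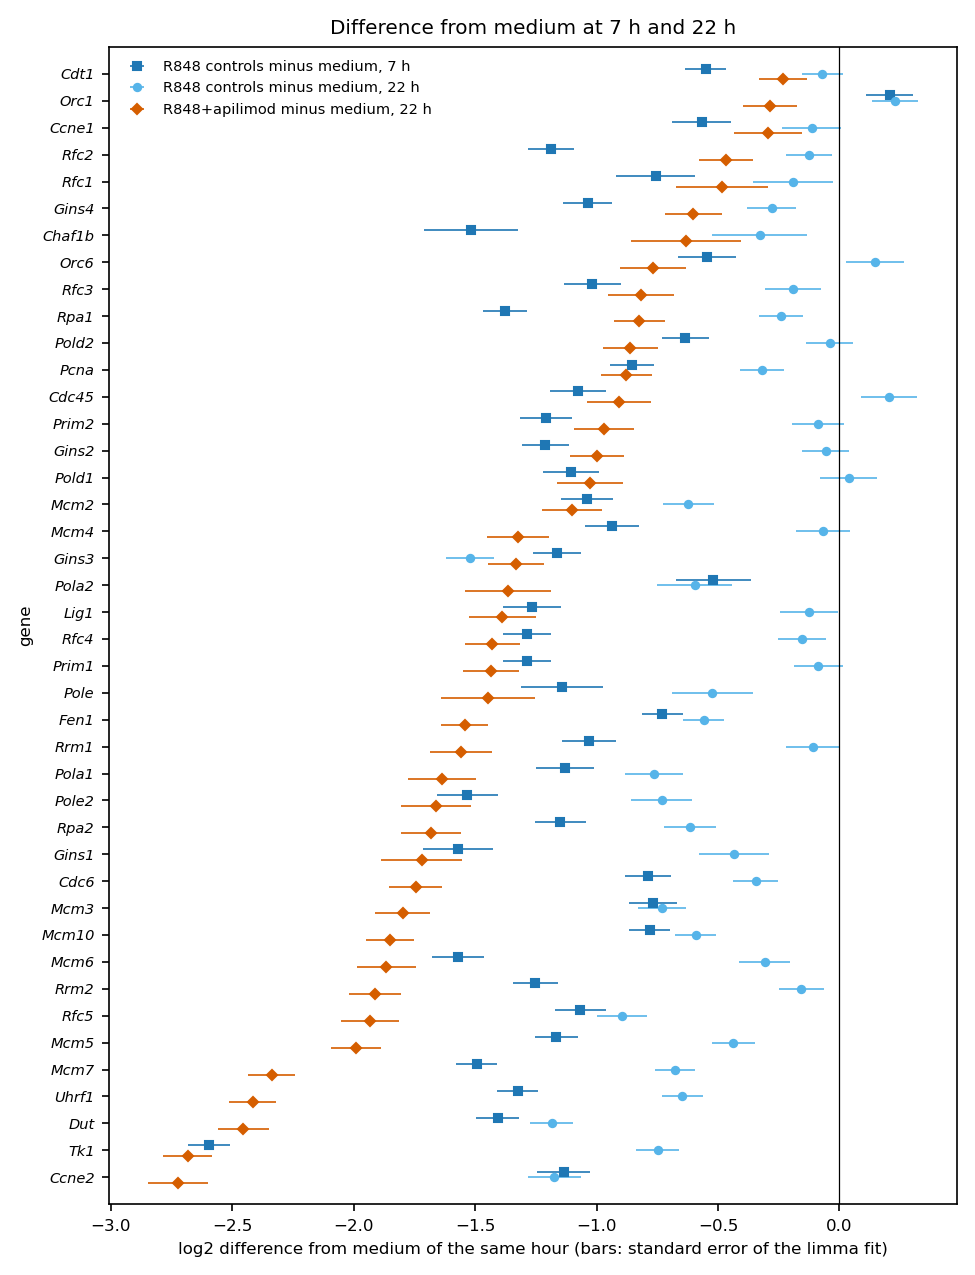
Log2 difference from medium of the same hour (x axis; bars are standard errors of the limma fit) for each of 42 genes (y axis, ordered by the apilimod value at 22 h): R848 controls at 7 h (squares) and 22 h (circles) and R848+apilimod at 22 h (diamonds). For most genes the circle lies to the right of the square and the diamond to its left; Ccne2 (-2.72), Tk1 (-2.68) and Dut (-2.45) are lowest with apilimod.

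Scaling of the arrays moved counts in several comparisons and turned the direction of none of the genes called in the R848 and apilimod comparisons at 3, 7 and 22 h. Centring each array on its median took the median of all genes in the R848 difference at 22 h from -0.03 to 0.19 and that of the 42 genes from -0.31 to -0.09, and the number called lower from 23 to 15 (20 after quantile normalization). The 8 genes whose call was lost with centring were Mcm5, Mcm6, Cdc6, Gins1, Gins4, Pcna, Pole and Rpa1, with values from -0.30 (Pole) to -0.02 (Rpa1), and those lost with quantile normalization were Cdc6, Gins4 and Pole. Orc1, Orc6, Cdc45 and Pold1 were then called higher at 22 h with centring (0.45, 0.37, 0.43 and 0.26), and the first 3 with quantile normalization. Among all called genes the share called higher in that comparison went from 36.2% to 52.2% with quantile normalization and 66.0% with centring. With centring it also went from 40.4% to 54.0% at 3 h, from 38.0% to 49.4% at 7 h, from 45.4% to 61.7% for apilimod against medium at 22 h and from 40.6% to 60.4% for the R848 change from 7 to 22 h. The apilimod count at 22 h was 37 with centring and 38 with quantile normalization. With R848 at 3 h quantile normalization gave 37 falls and centring 26, where 26 were reported. The rises of the R848 difference from 7 to 22 h were 33 with quantile normalization and 34 with centring, where 28 were reported, and the falls of the apilimod difference were 38 with each, where 33 were reported. Falls of the R848 difference from 3 to 7 h were 28 and 27 in place of 23, and falls in medium by 22 h 15 and 14 in place of 11. Without the dim R848+API09 array of 22 h the numbers called lower at 22 h were 19 with R848 and 39 with apilimod.

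Apilimod and API09, its analog, were given at the same dose and hours, so the 3 stimulated arms were also compared as single arms over the 4 hours, as 3 pairs, with the hour as a block and p-values adjusted over the 12257 genes within each pair. R848+API09 differed from R848 in 0 of 12257 genes by limma, with 182 at an unadjusted p under 0.05, 0 of them replication genes. The 95% interval of that difference was -0.69 to 0.63 for Mcm7 and -0.93 to 0.86 for Tk1 on the log2 scale, so differences of this size are not excluded for API09. R848+apilimod differed from R848 and from R848+API09 in 0 genes each, with 1588 and 1613 at an unadjusted p under 0.05, 2 of them replication genes in each case. These were Orc6 and Rpa2 against R848, and Cdt1 (0.47 ± 0.20, interval 0.03 to 0.90) and Orc6 (-0.36 ± 0.16) against R848+API09. In this comparison differences that change with the hour add to the spread. R848 itself was lower than medium over the hours for 1 of the 42 genes (0.196% of all genes), and 20 had an unadjusted p under 0.05. That gene was Gins3 (-1.09 ± 0.16, adjusted p = 0.00587), and the call was lost when the 3, 7 or 22 h arrays were left out, while 6 genes were called without the 1 h arrays.

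At single hours the 2 compounds can be set side by side only as 1 array each, without a test. R848+API09 was below R848 in 31, 22, 22 and 37 of the 42 genes at 1, 3, 7 and 22 h, against 56.6%, 51.5%, 50.4% and 71.3% of all genes tested. The median of that difference at 22 h was -0.17 over the 42 genes and -0.12 over all genes, on arrays whose upper quartiles were 87.0 and 103.6, and the part of this brightness in the counts was not tested. Single-array differences lay between -0.66 (Chaf1b) and 0.23 (Ccne1) at 22 h. At 22 h the apilimod array differed from the R848 array by -1.70 for Mcm7 and -2.00 for Tk1, and API09 differed from it by -0.08 and -0.13. At 7 h apilimod differed from R848 by 0.79 for Cdt1 and -1.03 for Ccne2, and API09 by -0.02 and 0.09. For Chaf1b at 22 h the 2 compounds gave like readings, at -0.63 with apilimod and -0.66 with API09.

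The genes also moved in medium late in the course. At 1, 3 and 7 h limma called 0 replication genes against 0 h (0.408%, 0.971% and 0.343% of all genes), with 2, 1 and 3 at an unadjusted p under 0.05, and at 22 h 11 were lower (10.8% of all genes were called lower): Mcm3, Mcm4, Mcm6, Cdc6, Mcm10, Pola1, Rpa2, Fen1, Rrm2, Uhrf1 and Ccne2. The largest were Cdc6 (-0.89 ± 0.09, adjusted p = 1.38e-04), Mcm4 (-0.63 ± 0.11) and Mcm6 (-0.57 ± 0.11), and Tk1 was at 0.23 ± 0.09, not called. The count was 5 or 6 without 1 or the other medium array at 0 h, and 17 without either R848 control array of 22 h. All 11 genes were also lower with apilimod than in the R848 controls at 22 h, as were 37 of the 42 genes in all. Every R848 difference at 22 h is read against the single medium array of that hour, so a gene that was lower there needs a lower stimulated level to be called.

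Genes around the replication machinery were counted from 4 lists, with a mitosis list for comparison. Of 27 regulators of the E2F, RB and G1 to S step, 17 were lower and 4 higher with R848 at 7 h, 15 and 6 at 22 h, and with apilimod 12 were lower and 1 higher at 7 h and 11 and 1 at 22 h. Over all genes the share called higher in these comparisons was 11.3%, 16.5%, 9.81% and 20.2%, and the share called lower 18.5%, 29.1%, 9.81% and 14.3%. Myc, a growth-promoting transcription factor, rose with R848 by 2.27 ± 0.14 at 7 h (adjusted p = 4.78e-07) and was lower with apilimod at that hour (-0.96 ± 0.14). Rbl2, a relative of RB that represses E2F targets, fell by 1.70 ± 0.14 with R848 at 7 h. The repressor E2F gene E2f8 was at -1.63 ± 0.12 and the CDK inhibitor gene Cdkn2c at -1.52 ± 0.10. Ccnd1 and Ccnd3, genes of D cyclins, which start the inactivation of RB, had the 2 largest apilimod differences of this list at 7 h: Ccnd1 was at -1.36 ± 0.13 (adjusted p = 1.76e-05) and Ccnd3 at -1.08 ± 0.09 (adjusted p = 7.19e-06). The third D cyclin gene, Ccnd2, was at -0.36 ± 0.10 (adjusted p = 0.0191).

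Of 17 genes of origin firing and the replication checkpoint, 13 were lower with R848 at 7 h and 10 at 22 h, where 1 was higher. With apilimod 0 of 17 were called at 7 h, 4 at an unadjusted p under 0.05, and 10 were lower at 22 h. Gmnn, which encodes geminin, the inhibitor of CDT1, had the largest fall with R848 at 7 h (-2.09 ± 0.11), and its apilimod difference at 3 and 7 h was 0.14 and -0.13, not called, at the hours when Cdt1 was higher. Clspn (-1.13 ± 0.13), Topbp1 (-1.12 ± 0.09) and Timeless (-0.97 ± 0.09), which act in checkpoint signalling and fork protection, also fell at 7 h, and Hus1, of the checkpoint clamp, was at 0.10, not called. Of 30 other replication genes 21 were lower and 1 higher with R848 at 7 h, 20 and 2 at 22 h, and with apilimod 6 were lower and 1 higher at 7 h and 16 and 1 at 22 h. Dscc1, of an alternative clamp loader, was at -1.89 ± 0.16, the maintenance methyltransferase gene Dnmt1 at -1.48 ± 0.10, the topoisomerase gene Top2a at -1.26 ± 0.12 and Wdhd1 at -1.26 ± 0.12 with R848 at 7 h. With apilimod at 7 h Dnmt1 was higher than the controls (0.63 ± 0.10) while its partner Uhrf1 was lower, and Pold4, the smallest subunit of polymerase delta, was lower (-0.86 ± 0.14).

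Of 18 other nucleotide genes 8 were lower and 1 higher with R848 at 7 h, 13 and 2 at 22 h, and with apilimod 3 were lower and 1 higher at 7 h and 13 and 1 at 22 h. Dctpp1 (-0.86 ± 0.09), the thymidylate kinase gene Dtymk (-0.79 ± 0.11) and the purine synthesis gene Paics (-0.72 ± 0.09) fell with R848 at 7 h. Samhd1, which breaks down deoxynucleotides, rose with R848 (0.68 ± 0.13) and was lower with apilimod (-1.01 ± 0.13) at 7 h. Tk2, the mitochondrial thymidine kinase, was higher with apilimod at 7 h (0.81 ± 0.12) and 22 h (1.28 ± 0.12), opposite to Tk1. The 21 mitosis genes all fell with R848 at 7 h, 19 were lower at 22 h, and with apilimod 2 were higher at 7 h and all 21 lower at 22 h. Their R848 difference rose from 7 to 22 h in 6 of 21, with a median change of 0.34 against 0.71 for the 42 replication genes, a difference that was not tested. Nusap1 (-1.52 ± 0.09), Aurkb (-1.76 ± 0.09), Kif11 (-1.30 ± 0.17) and Mki67 (-1.35 ± 0.13), genes of the spindle, its kinase and the dividing cell, were among those lower with apilimod at 22 h, and the 2 higher at 7 h were Bub1 (0.70 ± 0.09) and Tpx2 (0.45 ± 0.09).

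**Figure D5:**
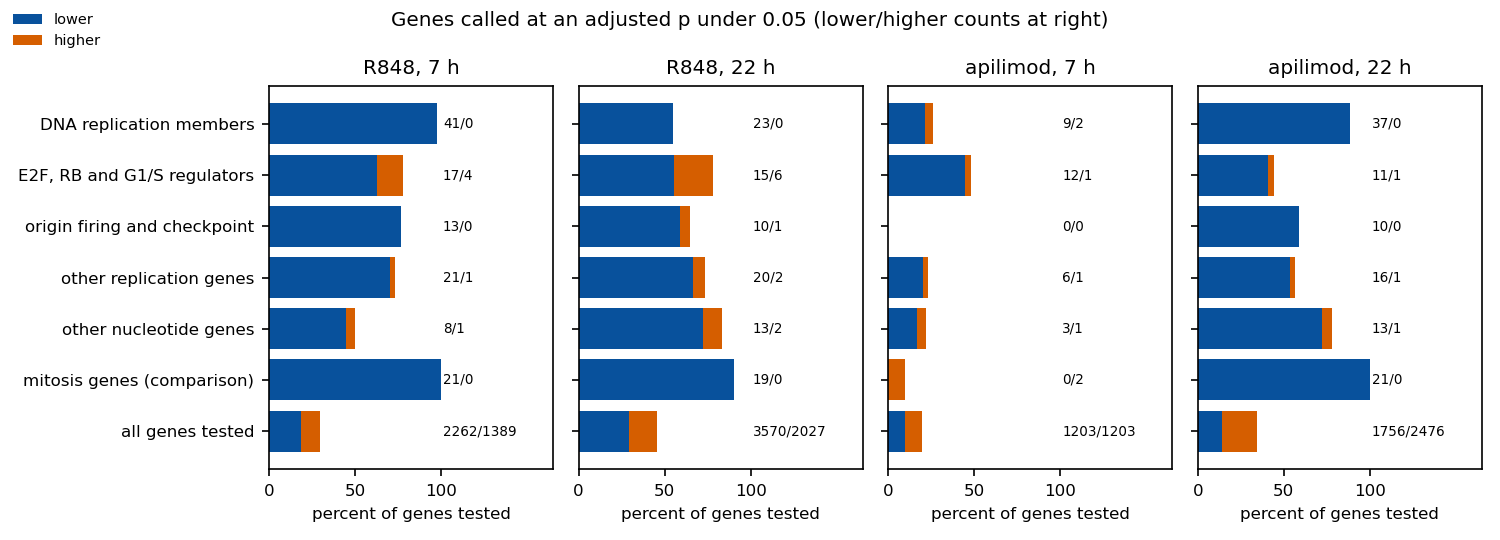
Percent of the tested genes of each list (y axis) called lower (blue) or higher (orange) at an adjusted p under 0.05, for R848 controls against medium and R848+apilimod against R848 controls at 7 and 22 h; the numbers at the right of each bar are counts called lower and higher. The replication and mitosis lists are nearly all lower with R848 at 7 h (41 of 42 and 21 of 21) and with apilimod at 22 h (37 of 42 and 21 of 21), while the E2F, RB and G1/S list holds the most calls with apilimod at 7 h (12 lower, 1 higher).

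Genes measured by several probe sets gave a check on direction, by sign alone. Of the 42 genes 29 had more than 1 kept probe set, with 38 further probe sets in all. All 38 had the same sign as the one used in the R848 difference at 7 h, and 36 in the apilimod difference at 22 h, where they agreed in sign for 27 of 29 genes. The exceptions at 22 h included the dim second probe sets of Orc1 (0.08 against -0.52) and Chaf1b (0.04 against -0.30). A like sign did not mean a like size. The smallest R848 differences at 7 h among the further probe sets were in Chaf1b (-0.02 against -1.52), Cdc45 (-0.05 against -1.08) and Mcm3 (-0.12 against -0.77). The mean intensities of these probe sets were 26.6, 34.8 and 26.4.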

How the data were processed

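Per the labels' protocols, RNA was amplified with NuGEN Ovation chemistry and hybridised to mouse 430 2.0 arrays. The authors deposited 1 linear intensity per probe set and array in a table of 45101 probe sets, per the file headers and values. How background, probe summary and normalization were handled is not given in the sources used here, and limma is named without version or role in the submitters' processing notes. Of the probe sets 34958 carry 1 gene symbol in the platform annotation, 932 several and 9160, controls aside, none. The table held 64 controls. For 34754 probe sets the symbol was taken from a match by Entrez ID. Of all probe sets 24192 exceeded 18.1 (the table-wide median) on 3 or more arrays. Among those with 1 symbol, controls aside, the one with the highest mean stood for its gene (12257 genes). Values were taken as log2(intensity + 16) and tested in limma 3.58.1 (R 4.3.3) with Benjamini-Hochberg adjustment, with 5 residual degrees of freedom within hours and 10 over hours. The median standard error at 7 h was 0.110, and the number of arrays limits the precision. The fitting code was tested on simulated data. Array values are given, per role, for up to 4 genes with the largest R848 difference at 7 h, up to 2 more with the largest apilimod difference at any hour, and called genes that moved against their role's median. Each pathway list names up to 4 genes by the R848 difference at 7 h and up to 2 by the apilimod difference at 7 h. The members, the lists and these rules were chosen with earlier results of these data known. Alternatives tried were the pseudocount, the filter, the scaling, the mean over probe sets, the variance moderation, a minimum difference, the hour block and leaving out arrays or hours. Tyms and Chaf1a entered no test.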

Additional observations from a re-analysis of the deposited data

Results flagged for a closer look

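These results differed between hours of 1 comparison, by limma's test of the difference itself over all genes at an adjusted p under 0.05. Between 3 and 7 h the R848 difference fell for 23 replication genes and rose for 2, with changes of -1.54 in Tk1, 1.10 in Cdc6 and -1.07 in Dut on the log2 scale. Between 7 and 22 h it rose for 28 genes, by 1.85 in Tk1, 1.28 in Cdc45 and 1.26 in Mcm6. The apilimod difference fell between 3 and 7 h for 4 genes, with changes of -0.94 in Ccne1, -0.93 in Ccne2 and -0.73 in Cdc6. Between 7 and 22 h it fell for 33 genes, with -1.59 in Mcm7, -1.52 in Lig1 and -1.45 in Gins1, and rose for 1 gene, Ccne1.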

How the results depend on the processing

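The 42 genes were followed singly in 10 comparisons: R848 and apilimod at 3, 7 and 22 h, apilimod against medium at 7 and 22 h, and both changes from 7 to 22 h. There, 7549 of 7980 values kept their direction and side of the threshold, 182 became called, 249 lost their call and no called value changed sign. The other comparisons were followed as counts. Requiring an absolute log2 difference of at least 1 left 5 of 26 falls with R848 at 3 h and 3 of 23 at 22 h. With apilimod that setting left 1 of 9 falls and 0 of 2 rises at 7 h, 21 of 37 falls at 22 h, 1 of 2 rises at 3 h, and 4 of 25 falls against medium at 3 h. It left 0 of 11 falls in medium, 4 of 23 falls of the R848 difference from 3 to 7 h, 14 of 28 rises from 7 to 22 h and 20 of 33 falls of the apilimod difference. Centring arrays gave 15 falls with R848 at 22 h, and a pseudocount of 1 gave 7 in medium. The 2 genes higher with apilimod at 7 h became 1 with the mean over probe sets and 4 with trend and robust variances. Arrays were left out singly only among the 2 medium arrays at 0 h and the R848 and R848+API09 arrays. The lone medium arrays from 1 to 22 h and the apilimod arrays could not be left out. The ranges that follow therefore do not show how far a count hangs on 1 of those arrays. Leaving out 1 array at a time gave 19 to 38 falls with R848 at 3 h, 40 to 41 at 7 h and 19 to 27 at 22 h, and 26 to 32 rises from 7 to 22 h. For apilimod it gave 7 to 11 falls at 7 h, 36 to 39 at 22 h and 30 to 38 between them, and in medium 5 to 17. Over the hours with R848, 6 genes were lower without the 1 h arrays, 0 without those of 3, 7 or 22 h and 0 with no hour block, against 1 as reported. The cause of these shifts was not tested. No paired analysis was possible by replicate number, because only the medium group at 0 h carries replicate numbers; arms share only the hour, the block of the comparisons over hours.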
